A study of Mus musculus with 47 samples.

Results

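The liver breaks down fatty acids in mitochondria and peroxisomes and turns part of the product into ketone bodies. Described here are 37 genes of fatty acid oxidation and ketone body metabolism in mouse liver, chosen by gene symbol from a list of known members of these pathways. All 37 were found among the 20320 genes of the deposited table, and all 37 were among the 16650 genes with enough reads to be tested. By role they were 6 genes of the carnitine shuttle, 5 acyl-CoA dehydrogenases, 5 enzymes of the later steps in mitochondria, 5 isomerases and reductases for unsaturated chains, 3 genes of electron transfer, 2 of ketone body metabolism and 11 of the peroxisome.

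Long-chain fatty acids are first joined to carnitine, carried across the inner mitochondrial membrane and handed back to coenzyme A. They are then shortened in repeated rounds of dehydrogenation, hydration, a further dehydrogenation and thiolysis, with electrons passed on through the electron transfer flavoprotein. Peroxisomes start on very long and branched chains, and liver mitochondria make ketone bodies from the acetyl-CoA when glucose is scarce. Many of these genes are textbook targets of the fatty acid receptor PPARA, which binds DNA with a retinoid X receptor at a direct repeat of AGGTCA with 1 base between the repeats.

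Polyadenylated liver RNA was sequenced in 47 libraries. The mice were of 3 inbred strains: C57BL/6J, a common laboratory strain, CAST/EiJ, a wild-derived strain, and NZO/HlLtJ, a strain known for obesity. Females and males of each strain were fed a diet labelled 10% fat + fiber or one labelled 44% fat + fiber, which the series describes as a control diet and a high fat, high sugar diet. The diets began at 6 weeks of age and the tissue was taken at 15 weeks. All groups shared the labels of wild-type genotype and no other treatment. There were 4 libraries in each of the 12 groups of strain, sex and diet, except for 3 of CAST/EiJ males on 10% fat. The labels do not say that the libraries of a group came from separate animals, so p-values here measure only the spread between these libraries, which may be technical. The sources used here do not give the hour of collection or any fasting. Replicate numbers below were given in accession order and only name a library.

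Library depth ranged from 21609240.0 to 47780231 counts, of which the 37 genes took between 0.624% and 1.48%. All 8 hepatocyte markers had reads in every library. Of 7 adipocyte markers 5 were in the table, and Adipoq, Plin1 and Cfd were at 0 in some libraries. The lymphocyte markers Cd3e, Nkg7 and Cd8a were at 0 in some libraries. The pancreatic acinar marker Cpa1 reached 20 CPM (counts scaled to a common library size and composition) in 5 libraries, which were C57BL/6J female 44% fat replicates 1 and 2, C57BL/6J male 10% fat replicates 2 and 3 and CAST/EiJ female 44% fat replicate 2. In bulk liver, fewer cells of a type and less RNA per cell cannot be told apart.

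Promoter sequences are shown for the genes whose windows held a near match to the PPARA repeat and for Hadhb, whose window overlaps that of Hadha. That of Eci3, which varied most between the sexes, is also shown. RefSeq promoter windows of build GRCm38.p6, running from 250 bases before to 50 bases after the gene start, were matched for 30 of the 37 genes and gave 32 windows. Each is written 5′ to 3′ on the strand of its gene, and capitals mark 13 bases within 2 mismatches of the repeat AGGTCANAGGTCA, where N is any base; Hadhb and Eci3 hold no such stretch. The windows lie at chr7:140116372-140116671 on the minus strand for Echs1, chr9:55512194-55512493 on the minus strand for Etfa, chr9:108661886-108662185 on the plus strand for Slc25a20, chr5:30155003-30155302 on the plus strand for Hadhb and chr13:34963760-34964059 on the minus strand for Eci3.
Echs1: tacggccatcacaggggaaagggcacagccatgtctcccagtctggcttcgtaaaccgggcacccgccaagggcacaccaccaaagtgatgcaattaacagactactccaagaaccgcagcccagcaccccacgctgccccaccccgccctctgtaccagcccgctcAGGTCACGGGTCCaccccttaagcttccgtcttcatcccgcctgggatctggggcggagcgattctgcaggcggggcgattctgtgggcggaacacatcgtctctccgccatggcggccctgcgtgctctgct
Etfa: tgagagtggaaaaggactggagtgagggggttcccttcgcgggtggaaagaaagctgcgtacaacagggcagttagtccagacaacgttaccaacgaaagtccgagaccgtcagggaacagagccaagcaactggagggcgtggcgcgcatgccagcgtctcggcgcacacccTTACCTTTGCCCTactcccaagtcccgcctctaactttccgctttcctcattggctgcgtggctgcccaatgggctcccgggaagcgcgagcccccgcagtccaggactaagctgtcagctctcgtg
Slc25a20: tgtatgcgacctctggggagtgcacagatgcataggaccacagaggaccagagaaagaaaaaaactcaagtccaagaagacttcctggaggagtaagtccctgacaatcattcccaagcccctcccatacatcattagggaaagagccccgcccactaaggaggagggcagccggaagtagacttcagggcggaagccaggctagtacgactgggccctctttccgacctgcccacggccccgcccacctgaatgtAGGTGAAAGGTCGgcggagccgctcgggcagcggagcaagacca
Hadhb: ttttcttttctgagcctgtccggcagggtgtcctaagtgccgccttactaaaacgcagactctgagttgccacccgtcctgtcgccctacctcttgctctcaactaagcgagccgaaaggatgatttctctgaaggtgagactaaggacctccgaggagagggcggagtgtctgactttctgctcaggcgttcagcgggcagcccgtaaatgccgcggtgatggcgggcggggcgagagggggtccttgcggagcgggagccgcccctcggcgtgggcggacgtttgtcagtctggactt
Eci3: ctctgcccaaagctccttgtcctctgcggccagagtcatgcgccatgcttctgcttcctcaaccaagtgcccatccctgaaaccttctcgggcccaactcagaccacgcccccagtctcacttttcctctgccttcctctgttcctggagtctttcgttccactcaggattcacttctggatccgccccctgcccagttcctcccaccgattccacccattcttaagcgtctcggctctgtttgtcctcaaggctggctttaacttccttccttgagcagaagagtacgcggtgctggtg

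Both strands of every window were searched. With no mismatch allowed the repeat was in 0 of the 32 windows of these genes and in 13 of all 32851 windows (0.0396%). With up to 1 mismatch it was in 0 of the 32 and in 182 of all windows (0.554%). With up to 2 mismatches it was in 3 of the 32 (9.38%) and in 1268 of all windows (3.86%). Those 3 were Echs1, with AGGTCACGGGTCC starting at -83 from the gene start, Etfa, with AGGGCAAAGGTAA on the other strand at -77, and Slc25a20, with AGGTGAAAGGTCG at 6. A match of these letters is a description of the sequence and does not show binding. Hadha and Hadhb, which encode the alpha and beta subunits of the mitochondrial trifunctional protein, start head to head 273 bases apart, so that their windows share 228 bases. Eci2 and Eci3, which encode delta3-delta2-enoyl-CoA isomerases, are neighbours on chromosome 13, and their windows were 65.1% identical over 261 aligned bases.

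Some members resemble one another in their transcripts, and reads could be divided between near copies. The transcripts of Acaa1a and Acaa1b, both peroxisomal thiolases, were 95.7% identical over 1471 aligned bases, and 21.6% and 22.6% of their windows of 100 bases were shared without a difference. Those of Eci2 and Eci3 were 87.5% identical over 1111 bases, with 1.34% and 1.76% of windows shared. No window of 100 bases was shared by Hadha and Ehhadh or by Abcd2 and Abcd3. The values of Acaa1a and Acaa1b are therefore less certain than those of the other members.

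Within groups the members varied together. After the mean of each of the 12 groups was removed from the log2 CPM, the median correlation over the 666 pairs of members was 0.51 across the 47 libraries, 342 pairs were above 0.5 and 32 were below 0. The closest pair was Acadl and Acadm, the dehydrogenases of long and medium chains, at 0.94. Hadha and Hadhb, whose windows overlap, reached 0.91, and Hadha and Decr1, on different chromosomes, reached 0.90. The lowest was Crot, which makes carnitine esters in peroxisomes, with the hydratase Echs1, at -0.34. Slc25a20, the carrier of acylcarnitines into the matrix, had the highest median correlation with the other members, 0.72. Eci3, at 0.11, and Crot, at 0.17, had low ones. These correlations are descriptions and share each library's depth, scaling and tissue sample.

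**Figure D1:**
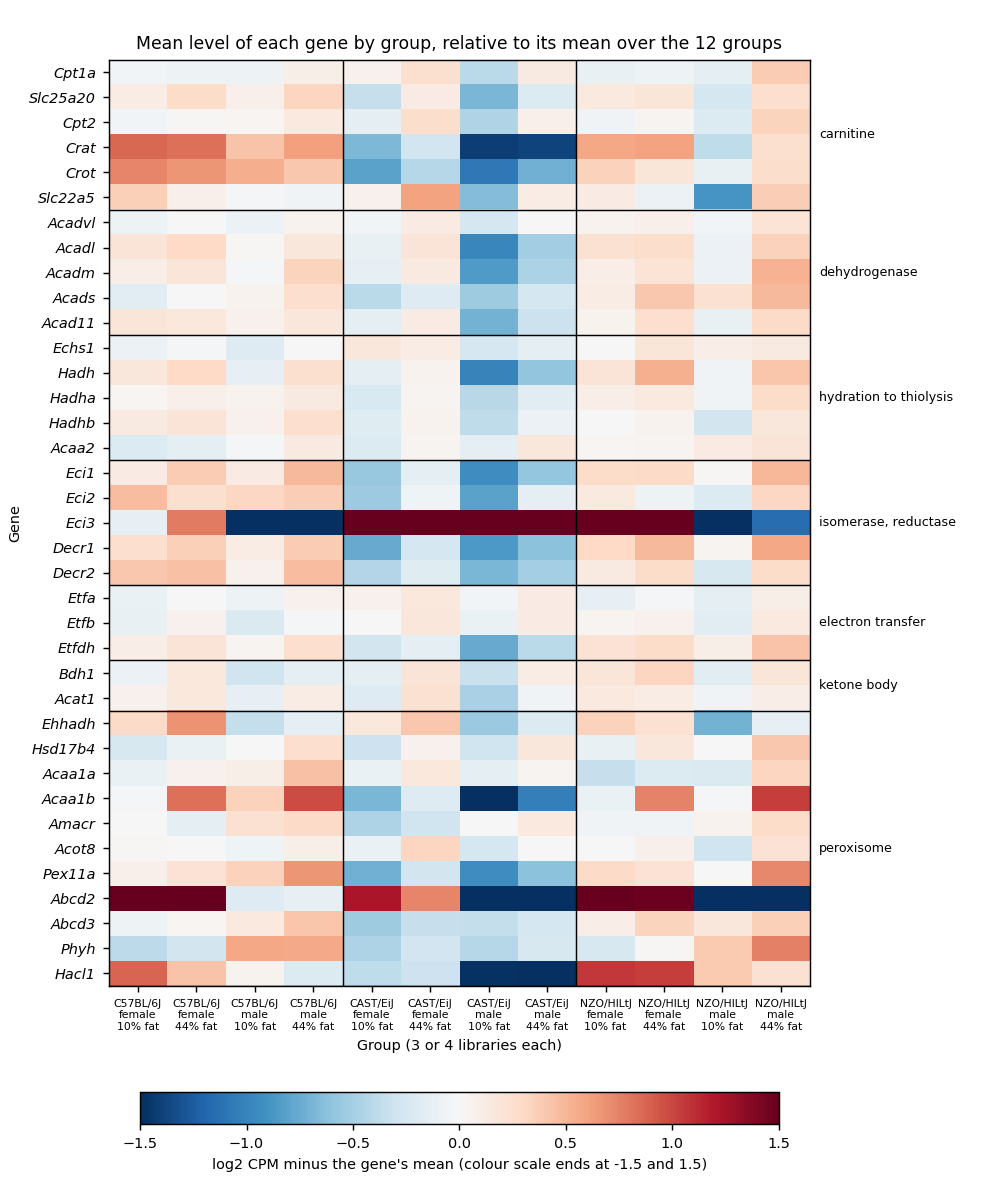
Each cell is the mean log2 CPM of 1 gene in 1 of the 12 groups minus the mean of that gene over the groups; genes are in rows by role, groups in columns by strain, sex and diet, and colours beyond the ends of the scale are cut off. The CAST/EiJ groups are low over many rows, the females are above the males of each strain in the row of Abcd2, and the males are above the females in the row of Phyh in C57BL/6J and NZO/HlLtJ.

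The first question was how the diets differed within each strain. In CAST/EiJ, 11 of the 37 genes were higher on 44% fat than on 10% fat and 0 were lower, and in NZO/HlLtJ 15 were higher and 0 lower. In C57BL/6J 0 were called in either direction. The differences were small: the median log2 fold change over the 37 genes was 0.28 in CAST/EiJ, 0.24 in NZO/HlLtJ and 0.14 in C57BL/6J, against 0.00, 0.00 and 0.01 over all genes tested. The difference was above 0 for 35, 35 and 31 of the 37 genes. Calls are at an adjusted p under 0.05, from the quasi-likelihood F test of edgeR adjusted by Benjamini-Hochberg over all 16650 genes, and each diet difference is the mean of the differences in females and in males. Changes and differences given below without a unit are log2 fold changes. Over all genes tested, 0.498% were called higher and 0.396% lower in CAST/EiJ, 3.5% and 2.14% in NZO/HlLtJ, and 0.823% and 0.168% in C57BL/6J.

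**Figure D2:**
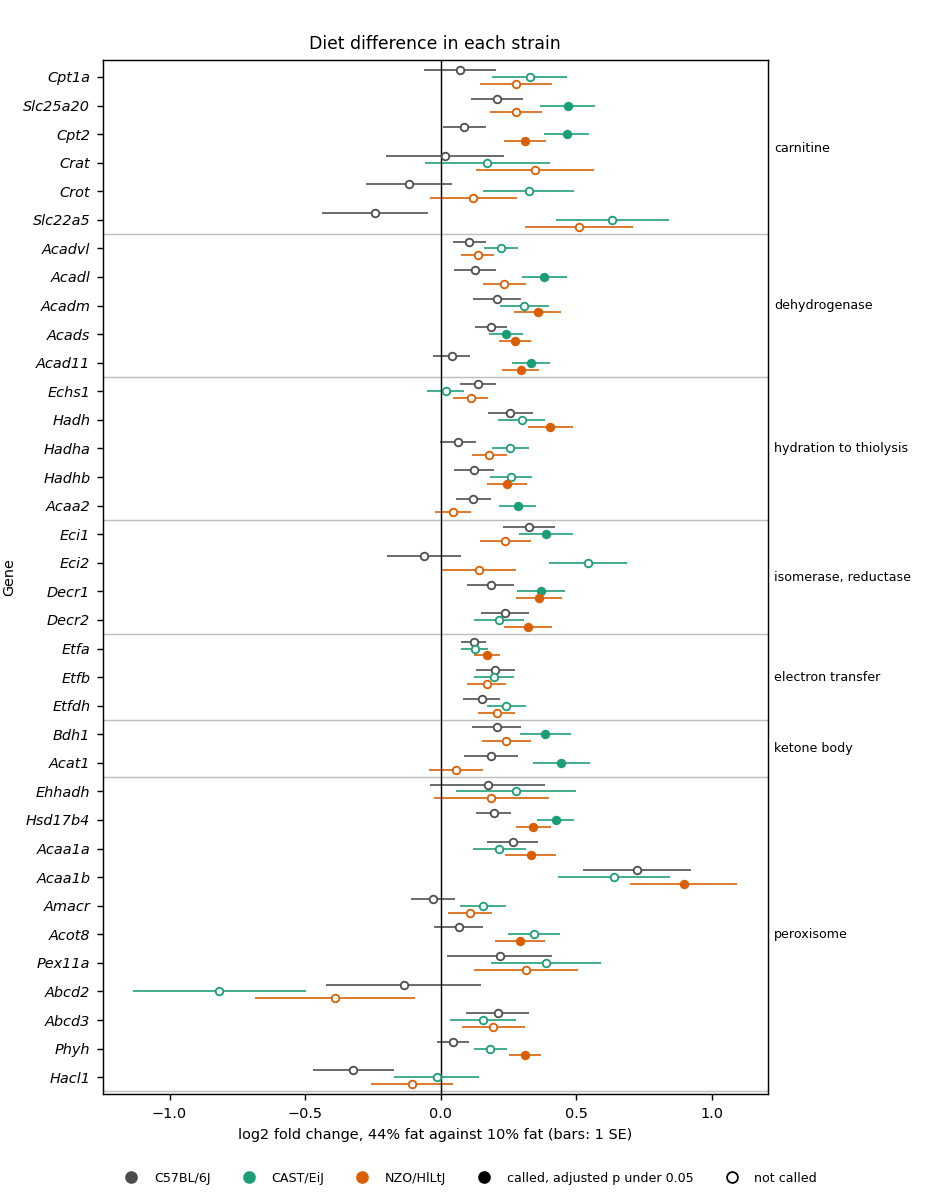
Log2 fold change of 44% fat against 10% fat with its standard error for 36 of the 37 genes in each strain (Eci3, nearly without reads in C57BL/6J males, is left out). Most points lie above 0 in all 3 strains, and filled points mark the genes called in CAST/EiJ and NZO/HlLtJ.

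In the carnitine shuttle, 2 of 6 genes rose in CAST/EiJ and 1 of 6 in NZO/HlLtJ. Cpt2 (ENSMUSG00000028607, chr4:107903981-107923610, GRCm38), which returns the acyl group to coenzyme A inside the mitochondrion, ranged from 79.3 to 128 CPM (median 108) on 10% fat and from 125 to 172 CPM (median 137) on 44% fat in CAST/EiJ. The ranges overlapped only at their edges, and the log2 fold change was 0.46 ± 0.08 (SE, adjusted p = 0.00228). In NZO/HlLtJ it ranged from 96.1 to 144 CPM (median 117) and from 123 to 174 CPM (median 145), a change of 0.31 ± 0.08 (SE, adjusted p = 0.0127). In C57BL/6J, where the ranges were 107 to 165 CPM (median 123) and 108 to 156 CPM (median 135), the difference was 0.09 ± 0.08 (SE, adjusted p = 0.726). Slc25a20 (ENSMUSG00000032602, chr9:108662088-108684641), whose promoter is printed above, rose in CAST/EiJ, with 48.7 to 82.9 CPM (median 66.5) on 10% fat and 72.9 to 112 CPM (median 88.6) on 44% fat, a change of 0.47 ± 0.10 (SE, adjusted p = 0.0156). Cpt1a, the enzyme that controls the entry of long chains, did not pass the test in any strain: its difference was 0.07 ± 0.13 (SE, adjusted p = 0.896) in C57BL/6J, 0.33 ± 0.14 (SE, adjusted p = 0.306) in CAST/EiJ and 0.28 ± 0.13 (SE, adjusted p = 0.245) in NZO/HlLtJ. Cpt1a ranged widely on both diets, from 250.4 to 578 CPM (median 445) and 429 to 656 CPM (median 541) in CAST/EiJ, from 312 to 547 CPM (median 439.7) and 351 to 680.2 CPM (median 548) in NZO/HlLtJ, and from 341 to 531 CPM (median 462) and 381 to 578 CPM (median 465) in C57BL/6J.

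Of the 5 acyl-CoA dehydrogenases, which take the first step of each round, 3 rose in CAST/EiJ and 3 in NZO/HlLtJ. Acads (ENSMUSG00000029545, chr5:115110299-115119346), the short-chain enzyme, ranged from 114 to 147 CPM (median 140.4) on 10% fat and from 147 to 184 CPM (median 165) on 44% fat in NZO/HlLtJ, with no overlap, and the log2 fold change was 0.27 ± 0.06 (SE, adjusted p = 0.0034). Acad11, which handles hydroxylated acids, ranged from 346 to 482 CPM (median 397) and from 435 to 528 CPM (median 497) there, a change of 0.29 ± 0.07 (SE, adjusted p = 0.00529). In CAST/EiJ Acad11 ranged from 226 to 391 CPM (median 342) and from 317 to 495 CPM (median 378), and Acadl, the long-chain enzyme, from 80.9 to 194 CPM (median 153) and from 121 to 226 CPM (median 165). Both pairs of ranges overlapped. Males of that strain were lower than females in both genes, as given below with the sexes. The changes were 0.33 ± 0.07 (SE, adjusted p = 0.0142) for Acad11 and 0.38 ± 0.08 (SE, adjusted p = 0.0155) for Acadl. Acadm, the medium-chain enzyme, rose in NZO/HlLtJ, with 225 to 328 CPM (median 283) and 292 to 446 CPM (median 349) and a change of 0.36 ± 0.09 (SE, adjusted p = 0.0101). In CAST/EiJ Acadm differed by 0.31 ± 0.09 (SE, adjusted p = 0.0936) and in C57BL/6J by 0.21 ± 0.09 (SE, adjusted p = 0.297), and neither passed the test. Acads was also called in CAST/EiJ, at 0.24 (adjusted p = 0.0484), and Acadvl, the very-long-chain enzyme, in no strain.

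Of the 5 enzymes of hydration, dehydrogenation and thiolysis, Hadh and Hadhb rose in NZO/HlLtJ and Acaa2 in CAST/EiJ. Hadh (ENSMUSG00000027984, chr3:131233419-131272101), the 3-hydroxyacyl-CoA dehydrogenase of shorter chains, ranged from 203 to 311 CPM (median 277) on 10% fat and from 308 to 402 CPM (median 357) on 44% fat in NZO/HlLtJ. The ranges overlapped only at their edges, and the change was 0.40 ± 0.08 (SE, adjusted p = 0.00168). Hadhb changed by 0.24 (adjusted p = 0.0416) in that strain and the thiolase Acaa2 by 0.28 (adjusted p = 0.0327) in CAST/EiJ. Hadha, the partner of Hadhb, ranged from 264 to 371 CPM (median 315) and 340.2 to 423 CPM (median 366) in CAST/EiJ, where its difference of 0.26 ± 0.07 (SE, adjusted p = 0.0584) fell short of the threshold. It was 0.18 ± 0.07 (SE, adjusted p = 0.105) in NZO/HlLtJ, with 343 to 460.3 CPM (median 395) and 413 to 494 CPM (median 458), and 0.06 ± 0.07 (SE, adjusted p = 0.771) in C57BL/6J, with 335 to 484 CPM (median 399.9) and 360.3 to 499 CPM (median 424).

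Among the 5 isomerases and reductases, which prepare unsaturated chains for oxidation, Decr1 rose in both strains, by 0.37 (adjusted p = 0.0334) in CAST/EiJ and 0.36 (adjusted p = 0.00751) in NZO/HlLtJ. Eci1 rose in CAST/EiJ, by 0.39 (adjusted p = 0.0481), and Decr2, the peroxisomal reductase, in NZO/HlLtJ, by 0.32 (adjusted p = 0.0244). Eci3 rose in NZO/HlLtJ, by 1.42 (adjusted p = 0.0351). Of the 3 electron transfer genes, Etfa was called in NZO/HlLtJ, at 0.17 (adjusted p = 0.0274).

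Both ketone body genes rose in CAST/EiJ and neither was called in the other strains. Bdh1 (ENSMUSG00000046598, chr16:31422280-31458901), which converts acetoacetate to 3-hydroxybutyrate, ranged from 162 to 235 CPM (median 218) on 10% fat and from 244 to 301 CPM (median 274) on 44% fat, without overlap, and changed by 0.38 ± 0.09 (SE, adjusted p = 0.0334). Acat1 (ENSMUSG00000032047, chr9:53580522-53610382), the mitochondrial acetoacetyl-CoA thiolase, ranged from 246 to 336 CPM (median 284) and from 324 to 580.2 CPM (median 383), and changed by 0.44 ± 0.11 (SE, adjusted p = 0.0287). For Bdh1 the difference was 0.24 (adjusted p = 0.109) in NZO/HlLtJ, with 181 to 303 CPM (median 249) and 253 to 332 CPM (median 292), and 0.21 (adjusted p = 0.321) in C57BL/6J, with 162 to 264 CPM (median 212) and 171 to 320.0 CPM (median 248). Whether the strains differ in this was tested for all genes and is given below.

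In the peroxisome, 1 of 11 genes rose in CAST/EiJ and 5 of 11 in NZO/HlLtJ. Hsd17b4, the bifunctional enzyme of branched and very long chains, was called in both. It ranged from 347 to 415 CPM (median 379) and from 456 to 543 CPM (median 519.8) in CAST/EiJ, without overlap, a change of 0.42 ± 0.07 (SE, adjusted p = 0.000481). In NZO/HlLtJ it ranged from 402 to 497 CPM (median 443) and from 483 to 664 CPM (median 566), a change of 0.34 ± 0.06 (SE, adjusted p = 0.000917), and in C57BL/6J from 374 to 565 CPM (median 412) and from 405 to 612 CPM (median 467), a difference of 0.19 ± 0.06 (SE, adjusted p = 0.149). Phyh (ENSMUSG00000026664, chr2:4919019-4938730), which begins the alpha-oxidation of phytanic acid, ranged from 845 to 1569.7 CPM (median 1164) and from 1015 to 2040.1 CPM (median 1422) in NZO/HlLtJ. Those ranges overlapped, and the sexes sat apart. Within females the ranges were 845 to 1026 CPM (median 907) and 1015 to 1182 CPM (median 1104), and within males 1302 to 1569.7 CPM (median 1424) and 1661 to 2040.1 CPM (median 1821). The change in Phyh was 0.31 ± 0.06 (SE, adjusted p = 0.00103). Acaa1b rose by 0.89 ± 0.20 (SE, adjusted p = 0.00427) in NZO/HlLtJ, with 413 to 1108 CPM (median 670.4) on 10% fat and 943 to 1646 CPM (median 1303) on 44% fat. In C57BL/6J, where it ranged from 572 to 1475 CPM (median 815) and from 829 to 1803 CPM (median 1370.1), its difference of 0.72 ± 0.20 (SE, adjusted p = 0.0637) had the lowest p of the 37 genes but fell short of the threshold. Acaa1a, by 0.33 (adjusted p = 0.0277), and the thioesterase Acot8, by 0.29 (adjusted p = 0.0473), were the others called in NZO/HlLtJ. Ehhadh, the other bifunctional enzyme, ranged from 248 to 1014 CPM (median 327) and from 329 to 687 CPM (median 506) in NZO/HlLtJ and was called in no strain (differences of 0.17 ± 0.21, 0.28 ± 0.22 and 0.19 ± 0.21 in C57BL/6J, in CAST/EiJ and in NZO/HlLtJ; adjusted p = 0.824, 0.688 and 0.706).

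Several calls rested on single libraries. In CAST/EiJ the count of 11 went to 2 without male 10% fat replicate 2, 3 without male 10% fat replicate 1, 5 without any of female 10% fat replicates 1 and 4, female 44% fat replicate 2 and male 44% fat replicates 2 and 4, 6 without female 10% fat replicate 3, 7 without female 44% fat replicate 3, and 19 without female 10% fat replicate 2. Hsd17b4 and Cpt2 were called whichever library was left out, and Acadl, Slc25a20 and Acad11 lost their calls without either of male 10% fat replicates 1 and 2. Of the 47 fits that each left out 1 library, the call of Acads was lost in 32, that of Eci1 in 31, those of Acaa2 and Decr1 in 11 each, that of Bdh1 in 8 and that of Acat1 in 7. Except for Acat1 these were also lost with the clock score or the identifier run as a covariate, both described below. Acat1 and Acads were lost without the 5 libraries where Cpa1 reached 20 CPM, Acads with another scaling (RLE), and Acads and Eci1 with no filter on low counts. In NZO/HlLtJ the count of 15 went to 9 when replicate 2 of the males on 10% fat, replicate 4 of the females on 10% fat or replicate 4 of the females on 44% fat was left out. Acaa1b, Hsd17b4, Phyh, Hadh, Decr1, Cpt2, Acads, Acadm and Acad11 were called there whichever library was left out. Acot8, Eci3, Etfa, Acaa1a, Decr2 and Hadhb lost their calls without at least 1 library and with the clock score as a covariate, described below. In C57BL/6J the count of 0 became 7 without male 44% fat replicate 3, and 1 without female 44% fat replicate 1, male 10% fat replicate 2, or NZO/HlLtJ female 10% fat replicate 2 or 3. With DESeq2 it was 1.

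Other measures moved with diet. The sum of the 5 adipocyte markers in the table was 5.18 to 21.1 CPM on 10% fat and 10.1 to 25.4 CPM on 44% fat in CAST/EiJ, 3.35 to 8.22 and 7.32 to 18.2 CPM in NZO/HlLtJ, and 6.39 to 12.4 and 7.16 to 32.6 CPM in C57BL/6J. Fabp4 rose in CAST/EiJ and NZO/HlLtJ, by 0.91 (adjusted p = 0.0422) and 1.02 (adjusted p = 0.00362), and Cidec in C57BL/6J and NZO/HlLtJ, by 2.56 (adjusted p = 0.0139) and 2.34 (adjusted p = 0.0106). Of the 8 hepatocyte markers Alb was lower on 44% fat, at -0.36 (adjusted p = 0.0422) in CAST/EiJ and -0.36 (adjusted p = 0.0103) in NZO/HlLtJ. The sum of all 8 overlapped between diets, at 67830 to 132633 CPM on 10% fat and 57680.2 to 112952 CPM on 44% fat in CAST/EiJ. It was 99016.3 to 139599 and 81234 to 117573 CPM in NZO/HlLtJ, and 91887.7 to 120835 and 98122.5 to 109353 CPM in C57BL/6J. The other markers of both lists are not given here by name. A clock score (standardized Dbp and Ciart less Arntl and Npas2, which peak at other hours) ran from -1.31 to 0.69 on 10% fat and from -1.25 to 1.10 on 44% fat in NZO/HlLtJ, from -0.15 to 1.44 and 0.06 to 1.38 in CAST/EiJ, and from -1.28 to 0.75 and -1.03 to 1.52 in C57BL/6J. With that score as a covariate the counts were 6 in CAST/EiJ and 9 in NZO/HlLtJ. The sample identifiers in the titles fell into 3 runs of consecutive numbers, and with the run as a covariate the counts were 6 and 15. Within a single run, with 4 to 6 libraries of CAST/EiJ, 0 members were called, and in the first run 0 in NZO/HlLtJ. The differences for Hsd17b4 in CAST/EiJ were then 0.34, 0.42 and 0.49, those for Cpt2 0.50, 0.47 and 0.47, and that for Hsd17b4 in the first run of NZO/HlLtJ 0.30. The part of these measures in the diet differences was not tested further.

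The diet effects were not shown to differ between strains. In the joint test of equal diet effects in the 3 strains 0 of the 37 genes were called, against 0.048% of all genes. DESeq2 also called 0. The lowest adjusted p was that of Cpt2, at 0.27. Nor were they shown to differ between the sexes: for the diet effect in males less that in females, averaged over strains, 0 members were called, against 0% higher and 0.012% lower over all genes. The median difference over the members was 0.14, and 34 of the 37 were above 0. The median over all genes is not given here and the members varied together within groups, so these values are not read as a result.

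The sexes of NZO/HlLtJ gave different counts of calls, in comparisons added after the values had been seen. In NZO/HlLtJ males 19 of the 37 genes were higher on 44% fat and 0 lower, with a median log2 fold change of 0.44. In NZO/HlLtJ females 0 were called, with a median of 0.05. Over all genes 1.56% were called higher and 1.12% lower in those males, and 0.45% and 0.036% in the females. The difference itself passed the test for 0 members, against 0.012% higher and 0.00601% lower over all genes, and DESeq2 called 1. The counts are therefore not shown to differ between the sexes of this strain. In the second identifier run NZO/HlLtJ had only females on 10% fat and males on 44% fat. In the third run it had only females on 44% fat and males on 10% fat. Between those runs, a shift between runs and an unequal diet effect in the sexes cannot be told apart in this strain. Marker sums moved with diet in these males too: that of the 8 hepatocyte markers was 99016 to 119202 CPM on 10% fat and 81234 to 94603 CPM on 44% fat, and that of the 5 adipocyte markers 4.62 to 8.22 and 8.64 to 18.2 CPM, both without overlap. In the females the hepatocyte sums of 104700.0 to 139599 and 104395 to 117573 CPM overlapped, and the adipocyte sums of 3.35 to 4.85 and 7.32 to 14.6 CPM did not. Their part in the counts was not tested.

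The lowest adjusted p in NZO/HlLtJ males was that of Acadm, which was at 288, 225, 259 and 281 CPM in the 4 libraries on 10% fat and at 446, 338, 426 and 395 CPM in the 4 on 44% fat. Every library on 44% fat was above every one on 10% fat, and the log2 fold change was 0.61 ± 0.12 (SE, adjusted p = 0.00426). In NZO/HlLtJ females Acadm was at 286, 322, 328 and 265 CPM and at 310.2, 292, 359.6 and 329 CPM, where the groups overlapped and the difference was 0.10 ± 0.12. Slc22a5, the carnitine importer of the plasma membrane, was at 14.4, 12.2, 18.3 and 16.5 CPM and at 42.6, 25.4, 39 and 41 CPM in the males, a rise of 1.27 ± 0.29 (SE, adjusted p = 0.00982). In the females it was at 29, 43.8, 32.2 and 21.2 CPM and at 23.2, 24.3, 26 and 32.5 CPM, a difference of -0.25 ± 0.28 (SE, adjusted p = 0.834). The test of male less female diet effects gave 1.52 ± 0.40 (SE, adjusted p = 0.208) for Slc22a5. Cpt2 (0.53), Hsd17b4 (0.41), Decr1 (0.54) and Phyh (0.36) completed the 6 genes of lowest p in the males. The count of 19 went to 1 without NZO/HlLtJ male 10% fat replicate 2, 7 without male 44% fat replicate 4, 9 without male 44% fat replicate 1 and 11 without male 10% fat replicate 3. It was 12 with the identifier run and 8 with the clock score as a covariate.

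More of the genes were called between strains than between diets, as was also so over all genes. Compared with C57BL/6J, 23 of the 37 genes were lower in CAST/EiJ and 3 higher, with a median log2 fold change of -0.39. Compared with CAST/EiJ, 28 were higher in NZO/HlLtJ and 2 lower, with a median of 0.35. Between NZO/HlLtJ and C57BL/6J 8 were higher and 7 lower, with a median of 0.01. Over all genes, 32.6% were called higher and 35.3% lower in CAST/EiJ against C57BL/6J, 35.3% and 32.8% in NZO/HlLtJ against CAST/EiJ, and 25.5% and 23.6% in NZO/HlLtJ against C57BL/6J, with medians of -0.02, 0.01 and 0.00. Every strain enters a pair of these comparisons, so the 3 sets of values share libraries and are given side by side. Each is the mean of the differences within sex and diet.

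**Figure D3:**
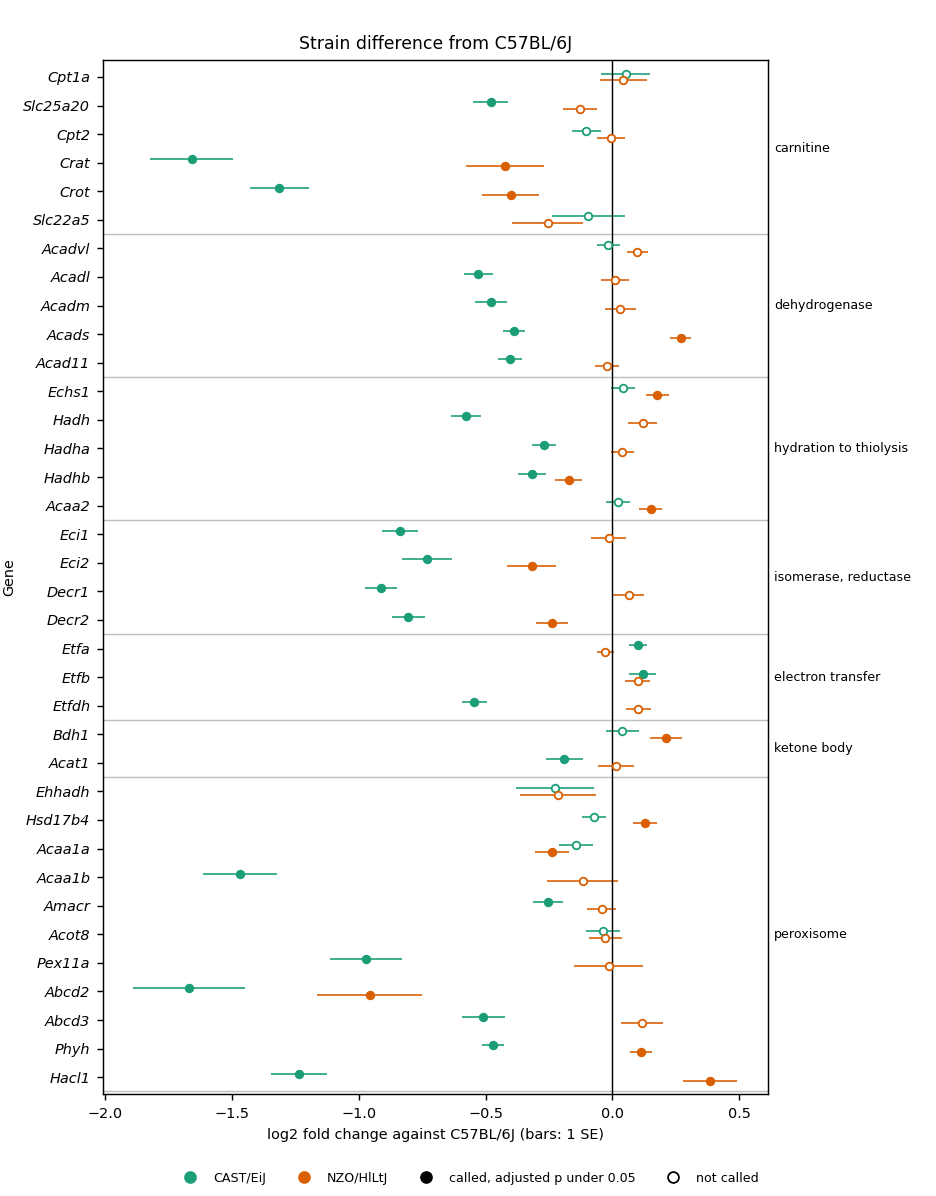
Log2 fold change of CAST/EiJ and of NZO/HlLtJ against C57BL/6J with its standard error for 36 of the 37 genes (Eci3, nearly without reads in C57BL/6J males, is left out). The points of CAST/EiJ lie mostly below 0, and those of NZO/HlLtJ lie on both sides of it.

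All of the 5 isomerase and reductase genes differed between CAST/EiJ and C57BL/6J, 4 lower and 1 higher. Decr1 (ENSMUSG00000028223, chr4:15917240-15945507), the mitochondrial 2,4-dienoyl-CoA reductase, ranged from 131 to 220.1 CPM (median 171) in C57BL/6J, from 71.7 to 128 CPM (median 89.8) in CAST/EiJ and from 123 to 221 CPM (median 188) in NZO/HlLtJ. No CAST/EiJ library reached the lowest of C57BL/6J, and the log2 fold changes were -0.91 ± 0.06 (SE, adjusted p = 1.94e-16) in CAST/EiJ against C57BL/6J and 0.98 ± 0.06 (SE, adjusted p = 2.43e-17) in NZO/HlLtJ against CAST/EiJ. Decr2 ranged from 142 to 242 CPM (median 190.4), from 79.5 to 148 CPM (median 109.6) and from 103 to 197 CPM (median 168) in the same order. It was lower than in C57BL/6J in both other strains, at -0.80 ± 0.06 (SE, adjusted p = 2.43e-14) in CAST/EiJ and -0.24 ± 0.06 (SE, adjusted p = 0.00175) in NZO/HlLtJ. Eci1, the mitochondrial enoyl-CoA isomerase, ranged from 66.5 to 123 CPM (median 82.4), from 32.7 to 72.1 CPM (median 48.4) and from 61.5 to 111 CPM (median 87.2), and was lower in CAST/EiJ at -0.84 ± 0.07 (SE, adjusted p = 6.32e-14). Eci2 was lower in both CAST/EiJ (-0.73, adjusted p = 2.9e-08) and NZO/HlLtJ (-0.32, adjusted p = 0.00596).

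Eci3 (ENSMUSG00000021416, chr13:34946614-34963810) went the other way. It ranged from 0 to 7.48 CPM (median 0.95) in C57BL/6J, from 9.8 to 52.1 CPM (median 26.5) in CAST/EiJ and from 0.104 to 21.1 CPM (median 7.42) in NZO/HlLtJ. It was called higher than in C57BL/6J in both strains (adjusted p = 2.66e-15 in CAST/EiJ and 3.45e-08 in NZO/HlLtJ), and lower in NZO/HlLtJ than in CAST/EiJ at -2.42 ± 0.28 (SE, adjusted p = 2.59e-09). No fold is given against C57BL/6J, since the C57BL/6J males on 10% fat had 0 reads and a fitted value then depends on the prior count. The medians over the members between strains stayed as given when Eci3 was set to the bound that 3 reads allow.

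The acyl-CoA dehydrogenases were all higher in NZO/HlLtJ than in CAST/EiJ, 5 of 5, and 4 of 5 were lower in CAST/EiJ than in C57BL/6J. The first count was 4 without CAST/EiJ male 10% fat replicate 2, where the call of Acadvl was lost at an adjusted p of 0.056. Acads ranged from 100.5 to 156 CPM (median 122) in C57BL/6J, from 73.6 to 113 CPM (median 94.4) in CAST/EiJ and from 114 to 184 CPM (median 147) in NZO/HlLtJ. It was the dehydrogenase called between NZO/HlLtJ and C57BL/6J, at 0.27 ± 0.04 (SE, adjusted p = 9.42e-07), and between NZO/HlLtJ and CAST/EiJ its difference was 0.66 ± 0.04 (SE, adjusted p = 4.76e-17), with the highest CAST/EiJ library just under the lowest of NZO/HlLtJ. Acadm, from 227 to 389 CPM (median 301), from 126 to 325 CPM (median 234) and from 225 to 446 CPM (median 316), was lower in CAST/EiJ at -0.48 ± 0.06 (SE, adjusted p = 1.41e-08), and Acadl at -0.53 (adjusted p = 8.44e-11). The enzymes of the later steps differed as follows. Hadh, from 216 to 365 CPM (median 288), from 107 to 285 CPM (median 212) and from 203 to 402 CPM (median 309), was lower in CAST/EiJ than in C57BL/6J at -0.58 (adjusted p = 2.87e-11) and higher in NZO/HlLtJ than in CAST/EiJ by 0.70 ± 0.06 (SE, adjusted p = 1.65e-13). Hadha was lower in CAST/EiJ at -0.27 (adjusted p = 4.2e-06), with 335 to 499 CPM (median 413) in C57BL/6J and 264 to 423 CPM (median 345) in CAST/EiJ, and was at 343 to 494 CPM (median 419) in NZO/HlLtJ. Echs1, from 143 to 198 CPM (median 166) in C57BL/6J and from 150.0 to 212 CPM (median 195) in NZO/HlLtJ, was higher in NZO/HlLtJ by 0.18 ± 0.05 (SE, adjusted p = 0.00147), and Acaa2 likewise by 0.15 (adjusted p = 0.00655), while Hadhb was lower at -0.17 (adjusted p = 0.00589).

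Of the electron transfer genes, Etfdh (ENSMUSG00000027809, chr3:79603788-79629500), which passes the electrons to ubiquinone, ranged from 239.6 to 349 CPM (median 289.5) in C57BL/6J, from 139.7 to 252 CPM (median 210.4) in CAST/EiJ and from 261 to 381 CPM (median 307) in NZO/HlLtJ. It was lower in CAST/EiJ than in C57BL/6J at -0.54 ± 0.05 (SE, adjusted p = 8.43e-13) and higher in NZO/HlLtJ than in CAST/EiJ by 0.65 ± 0.05 (SE, adjusted p = 5.83e-15). The subunits of the flavoprotein itself were slightly higher in CAST/EiJ, Etfa by 0.10 ± 0.03 (SE, adjusted p = 0.00864) and Etfb by 0.12 (adjusted p = 0.0397). Both calls were lost with the clock score as a covariate, at adjusted p of 0.108 for Etfa and 0.401 for Etfb. The call of Etfb was also lost in 18 of the 47 fits that each left out 1 library, without the 5 libraries where Cpa1 reached 20 CPM, and with a filter of 1 CPM in 4 libraries. Etfa was lower in NZO/HlLtJ than in CAST/EiJ, at -0.13 (adjusted p = 0.0011).

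In the carnitine shuttle 3 of 6 genes were lower in CAST/EiJ than in C57BL/6J: Crat, the carnitine acetyltransferase, at -1.66 (adjusted p = 2.56e-11), Crot at -1.31 (adjusted p = 1.09e-12) and Slc25a20 at -0.48 (adjusted p = 1.03e-07). Crot ranged from 634 to 1180.4 CPM (median 839) in C57BL/6J, from 153 to 516 CPM (median 318) in CAST/EiJ and from 439 to 1101 CPM (median 614) in NZO/HlLtJ, with no overlap between CAST/EiJ and C57BL/6J. Crat and Crot were also lower in NZO/HlLtJ than in C57BL/6J, at -0.42 (adjusted p = 0.0216) and -0.40 (adjusted p = 0.00319). Cpt1a was not called between CAST/EiJ and C57BL/6J or between NZO/HlLtJ and C57BL/6J (differences of 0.05 and 0.04, adjusted p = 0.642 and 0.727), with 341 to 578 CPM (median 465) in C57BL/6J, 250.4 to 656 CPM (median 504) in CAST/EiJ and 312 to 680.2 CPM (median 484) in NZO/HlLtJ. Of the ketone body genes Bdh1 was higher in NZO/HlLtJ than in both other strains, by 0.21 (adjusted p = 0.00518) against C57BL/6J and 0.17 (adjusted p = 0.0175) against CAST/EiJ, and differed by 0.04 (adjusted p = 0.608) between CAST/EiJ and C57BL/6J. Its ranges were 162 to 320.0 CPM (median 232), 162 to 301 CPM (median 244) and 181 to 332 CPM (median 274) in C57BL/6J, in CAST/EiJ and in NZO/HlLtJ. Without CAST/EiJ male 10% fat replicate 1 its call against CAST/EiJ was lost, at an adjusted p of 0.0516. Without C57BL/6J male 10% fat replicate 2 the call of Crat between NZO/HlLtJ and C57BL/6J was lost.

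In the peroxisome 7 of 11 genes were lower in CAST/EiJ than in C57BL/6J and 8 of 11 were higher in NZO/HlLtJ than in CAST/EiJ. Hacl1 (ENSMUSG00000021884, chr14:31552905-31641286), which cleaves 2-hydroxy acyl-CoA in alpha-oxidation, ranged from 266 to 693 CPM (median 393) in C57BL/6J, from 80.2 to 452 CPM (median 203) in CAST/EiJ and from 358 to 918 CPM (median 528) in NZO/HlLtJ. It was lower in CAST/EiJ than in C57BL/6J at -1.24 ± 0.11 (SE, adjusted p = 8.67e-13), higher in NZO/HlLtJ than in CAST/EiJ by 1.62 ± 0.11 (SE, adjusted p = 4.52e-16) and higher in NZO/HlLtJ than in C57BL/6J by 0.39 ± 0.11 (SE, adjusted p = 0.0025). The ranges overlapped, and the sexes differed too. Phyh, the preceding enzyme of that path, was higher in NZO/HlLtJ than in CAST/EiJ by 0.58 ± 0.04 (SE, adjusted p = 1.74e-15), with 725 to 1038 CPM (median 882) in CAST/EiJ and 845 to 2040.1 CPM (median 1242) in NZO/HlLtJ. Acaa1b was lower in CAST/EiJ than in C57BL/6J at -1.47 (adjusted p = 2.23e-11), and Pex11a, which drives the division of peroxisomes, at -0.97 (adjusted p = 1.5e-07). Abcd2, a transporter of very long chains into the peroxisome, was lower than in C57BL/6J in both, at -1.67 (adjusted p = 2.38e-08) in CAST/EiJ and -0.96 ± 0.21 (SE, adjusted p = 0.000209) in NZO/HlLtJ, with 10.1 to 107 CPM (median 51.9), 1.77 to 67.5 CPM (median 29.5) and 2.37 to 101 CPM (median 32.9) in C57BL/6J, in CAST/EiJ and in NZO/HlLtJ. Ehhadh differed by -0.23 ± 0.15 (SE, adjusted p = 0.19) between CAST/EiJ and C57BL/6J, which did not pass the test, with 217 to 966 CPM (median 489) and 264 to 779 CPM (median 429) against 248 to 1014 CPM (median 467) in NZO/HlLtJ.

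Under every alternative and with any library left out, 23 of the 26 calls between CAST/EiJ and C57BL/6J, 28 of the 30 between NZO/HlLtJ and CAST/EiJ, and 13 of the 15 between NZO/HlLtJ and C57BL/6J were kept. Those not kept were Etfa, Etfb and Acat1 in the first, Acadvl and Bdh1 in the second, and Crat and Phyh in the third comparison. Markers of other cells differed between these strains as well. All 7 Kupffer cell markers were lower in CAST/EiJ than in C57BL/6J, and their sum was 101 to 307 CPM in CAST/EiJ, 208 to 390.5 CPM in C57BL/6J and 166 to 386 CPM in NZO/HlLtJ. The sum of the 8 hepatocyte markers was 57680.2 to 132633 CPM in CAST/EiJ, 91888 to 120835 CPM in C57BL/6J and 81234 to 139599 CPM in NZO/HlLtJ. The clock score ran from -0.15 to 1.44 in CAST/EiJ, from -1.28 to 1.52 in C57BL/6J and from -1.31 to 1.10 in NZO/HlLtJ. The part of cell composition in the strain differences was not tested. The sources used here do not say whether the reads of CAST/EiJ and NZO/HlLtJ were counted against the sequence of their own strain. A difference between strains in the RNA and one in how reads match the reference therefore cannot be told apart in any of these fold changes.

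**Figure D4:**
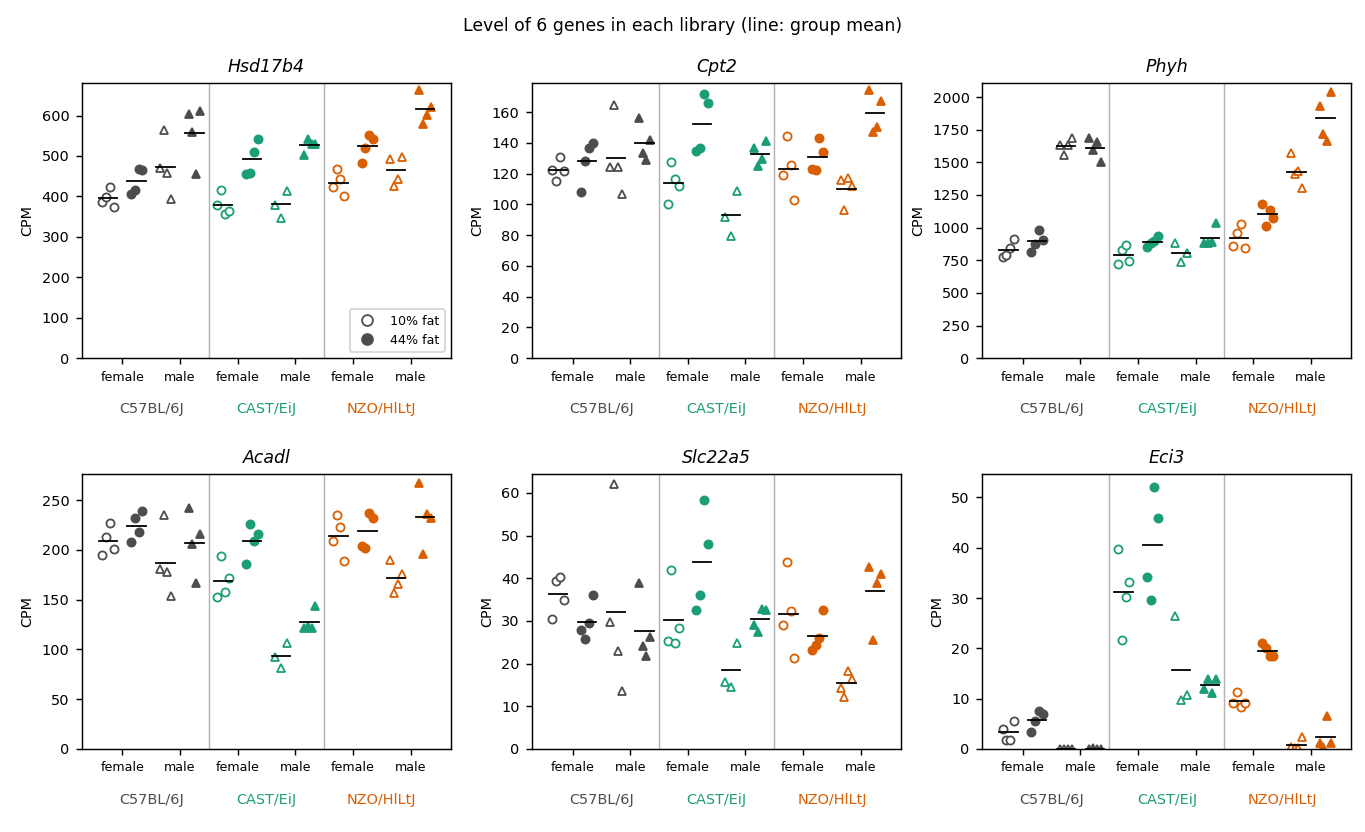
CPM of Hsd17b4, Cpt2, Phyh, Acadl, Slc22a5 and Eci3 in each of the 47 libraries, 1 panel per gene, with axes from 0; circles are females, triangles males, open symbols 10% fat, filled symbols 44% fat, and lines the group means. Phyh separates the sexes in C57BL/6J and NZO/HlLtJ, Acadl is lowest in CAST/EiJ males, and Eci3 is near 0 in C57BL/6J males.

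Between the sexes, 16 of the 37 genes were lower in males and 5 higher, averaged over strains and diets, with a median log2 fold change of -0.12 against -0.01 over all genes. Over all genes 19% were called higher and 19.6% lower in males. By role, 3 of 6 carnitine shuttle genes, 3 of 5 dehydrogenases and both ketone body genes were lower in males, while 4 of the 5 genes that were higher in males belonged to the peroxisome. The sexes differed unequally in the strains: the joint test of equal sex differences called 12 of the 37 genes, against 13.6% of all genes. The titles mark the sexes as F and M, and the labels as female and male.

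**Figure D5:**
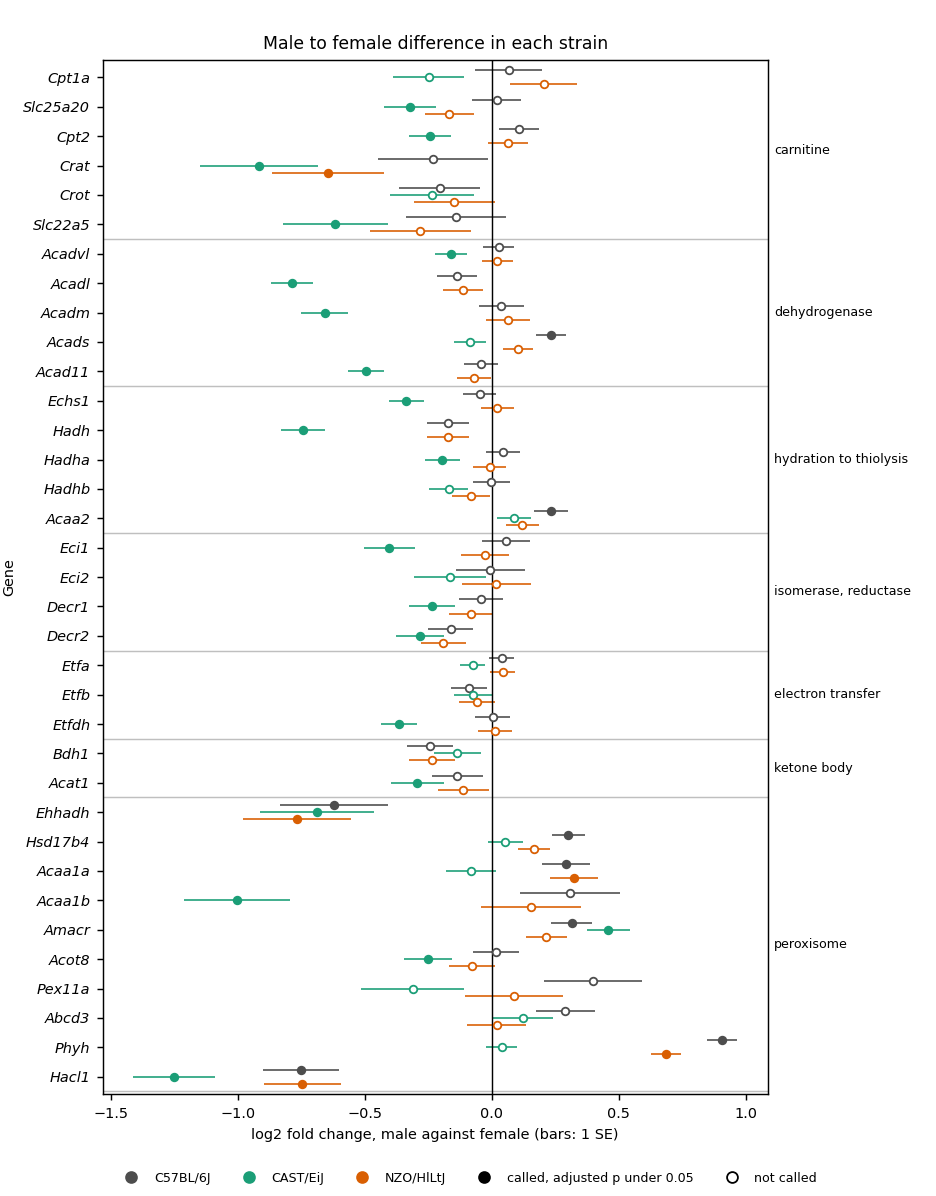
Log2 fold change of males against females with its standard error in each strain for 35 of the 37 genes (Eci3 and Abcd2, with far larger differences, are left out). Phyh lies well above 0 in C57BL/6J and NZO/HlLtJ but near 0 in CAST/EiJ, where most other points lie below 0.

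In CAST/EiJ alone 22 of the 37 genes were lower in males and 1 higher, with a median of -0.25. In C57BL/6J 4 were lower and 6 higher, with a median of 0.00, and in NZO/HlLtJ 5 were lower and 2 higher, with a median of -0.03. These comparisons within a strain were added after the values had been seen. Over all genes 16.1% were called higher and 14.2% lower in CAST/EiJ males, 8.1% and 8.7% in C57BL/6J males and 7.94% and 9.31% in NZO/HlLtJ males. The CAST/EiJ count of 23 in either direction went to 13 without CAST/EiJ male 10% fat replicate 2.

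The dehydrogenases of long and medium chains were low in CAST/EiJ males. Acadl (ENSMUSG00000026003, chr1:66830839-66863277) ranged from 153 to 226 CPM (median 189.8) in females and from 80.9 to 144 CPM (median 121) in males of CAST/EiJ, without overlap. In C57BL/6J the ranges were 195 to 239.5 CPM (median 216) and 154 to 242 CPM (median 193), and in NZO/HlLtJ 189 to 237 CPM (median 216) and 156 to 267 CPM (median 193), which overlapped. The male to female log2 fold change of Acadl was -0.79 ± 0.08 in CAST/EiJ, -0.14 ± 0.08 in C57BL/6J and -0.11 ± 0.08 in NZO/HlLtJ, and the joint test of the sex by strain difference gave an adjusted p of 2.05e-05. Acadm ranged from 234 to 325 CPM (median 293) in CAST/EiJ females and from 126 to 231 CPM (median 190.3) in CAST/EiJ males, again without overlap. Its changes were -0.66 ± 0.09, 0.04 ± 0.09 and 0.06 ± 0.09 in CAST/EiJ, C57BL/6J and NZO/HlLtJ (adjusted p of the joint test = 4.08e-05). Hadh showed the same in CAST/EiJ, with 212 to 285 CPM (median 244) in females and 107 to 192 CPM (median 155) in males, with changes of -0.74 ± 0.09, -0.17 ± 0.08 and -0.17 ± 0.08 (adjusted p of the joint test = 0.000399). Acad11, with 342 to 495 CPM (median 397) in females and 226 to 352 CPM (median 317) in males of CAST/EiJ, changed by -0.50, -0.04 and -0.07 in the same order (adjusted p = 0.000863).

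Acaa1b was lower in males of CAST/EiJ, at -1.01 ± 0.21. In C57BL/6J and NZO/HlLtJ its differences of 0.31 ± 0.20 and 0.16 ± 0.20 did not pass the test on their own. A difference in the opposite direction is therefore not shown in those strains. Its joint test had an adjusted p of 0.00171. Etfdh (-0.36 in CAST/EiJ, 0.00 in C57BL/6J and 0.01 in NZO/HlLtJ) and Echs1 (-0.34, -0.05 and 0.02) were also lower in males of CAST/EiJ only among the calls within strains, with adjusted p of 0.00693 and 0.0144 in the joint test. Eci1 (-0.40, 0.06 and -0.03; adjusted p = 0.0377) and Acads (-0.09, 0.23 and 0.10; adjusted p = 0.0247) were nearest to the threshold. With replicate 2 of the CAST/EiJ males on 10% fat left out, the joint call of Acads was lost, at an adjusted p of 0.0887.

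Phyh (ENSMUSG00000026664, chr2:4919019-4938730) had the opposite pattern. In C57BL/6J it ranged from 777 to 984 CPM (median 861) in females and from 1501 to 1686 CPM (median 1634) in males, and in NZO/HlLtJ from 845 to 1182 CPM (median 1021) and from 1302 to 2040.1 CPM (median 1616), without overlap in either strain. In CAST/EiJ the ranges of 725 to 934 CPM (median 861) and 735 to 1038 CPM (median 884) overlapped over most of their width. The male to female log2 fold change was 0.91 ± 0.06 in C57BL/6J, 0.69 ± 0.06 in NZO/HlLtJ and 0.04 ± 0.06 in CAST/EiJ. Over the strains it was 0.54 ± 0.03 (SE, adjusted p = 1.73e-16), and the adjusted p of the joint test, 1.43e-09, was the lowest of the 37 genes. Hacl1, the next enzyme in the same path, was lower in males instead. It ranged from 275 to 693 CPM (median 598) in females and from 266 to 413 CPM (median 332) in males of C57BL/6J, from 203 to 452 CPM (median 271) and 80.2 to 172 CPM (median 118) in CAST/EiJ, and from 541 to 918 CPM (median 704) and 358 to 516 CPM (median 436) in NZO/HlLtJ. The change over the strains was -0.92 ± 0.09 (SE, adjusted p = 5.04e-11), and the ranges of the sexes were apart in CAST/EiJ and NZO/HlLtJ and overlapped in C57BL/6J.

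Abcd2 (ENSMUSG00000055782, chr15:91145884-91191807) was lower in males of every strain. It ranged from 63.6 to 107 CPM (median 92.1) in females and from 10.1 to 40.3 CPM (median 18) in males of C57BL/6J. In CAST/EiJ the ranges were 29.5 to 67.5 CPM (median 45.5) and 1.77 to 8.37 CPM (median 3.92), and in NZO/HlLtJ 51.1 to 101 CPM (median 65.4) and 2.37 to 14.6 CPM (median 5.95). No male library reached the lowest female library of its strain, and the change over the strains was -2.92 ± 0.19 (SE, adjusted p = 1.76e-15). Its joint test had an adjusted p of 0.0185 (0.0534 with C57BL/6J male 10% fat replicate 2 left out), with changes of -1.98, -3.48 and -3.30 in C57BL/6J, in CAST/EiJ and in NZO/HlLtJ. Of the other peroxisomal genes Amacr, the racemase of branched acids, was higher in males by 0.33 (adjusted p = 4.45e-07), Hsd17b4 by 0.17 (adjusted p = 0.000286) and Acaa1a by 0.18 (adjusted p = 0.00894). Ehhadh was lower in males at -0.69 ± 0.13 (SE, adjusted p = 2.57e-05), with 327 to 1014 CPM (median 623) in females and 217 to 949 CPM (median 374) in males, and at -0.62, -0.69 and -0.77 in C57BL/6J, in CAST/EiJ and in NZO/HlLtJ.

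Eci3, the isomerase whose promoter is printed above, was almost silent in C57BL/6J males. In C57BL/6J males it had 0 reads in all 4 libraries on 10% fat and 5 reads in all on 44% fat, where 2 libraries were at 0 and the highest held 3 reads. In C57BL/6J females it was at 3.98, 1.83, 1.83 and 5.6 CPM on 10% fat and at 3.42, 5.48, 7.48 and 6.89 CPM on 44% fat, from 587 and 968 reads in all. On 10% fat the pooled female level was at least 187-fold higher than the male one, with 3 reads over the male group as the floor. On 44% fat the ratio was 194, with a 95% exact interval of 82.7 to 598 for counting error only. In NZO/HlLtJ Eci3 was at 9.1, 11.3, 8.28 and 9.07 CPM on 10% fat and 21.1, 20, 18.4 and 18.4 CPM on 44% fat in females, and at 0.308, 0.104, 0.139 and 2.25 CPM and 1.17, 0.403, 6.56 and 1.25 CPM in males. The pooled female to male ratios were 13.8 and 7.69 in NZO/HlLtJ and 2.01 and 3.24 in CAST/EiJ, on 10% and 44% fat. Of the male reads in NZO/HlLtJ, 83 of 105 on 10% fat came from replicate 4 and 259 of 345 on 44% fat from replicate 3. Without those libraries the ratios were 49.9 and 21.9. On 10% fat in CAST/EiJ male replicate 1, at 26.5 CPM, was above the lowest female library, at 21.6 CPM. Eci3 was called lower in males over the strains (adjusted p = 1.14e-12) and in the joint test (adjusted p = 2.23e-05). The fitted folds are not printed because the C57BL/6J males had almost no reads.

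In the remaining roles, the carnitine shuttle genes Crat, Slc22a5 and Slc25a20 were lower in males, at -0.60 (adjusted p = 0.000298), -0.35 (adjusted p = 0.0162) and -0.16 (adjusted p = 0.0246). With CAST/EiJ male 10% fat replicate 2 left out the call of Slc25a20 was lost, at an adjusted p of 0.0564. Bdh1, at -0.21 (adjusted p = 0.00174), and Acat1, at -0.18 (adjusted p = 0.0128), were lower in males, with Bdh1 from 199 to 332 CPM (median 266) in females and from 162 to 297 CPM (median 234) in males. Acaa2 was higher in males, by 0.15 (adjusted p = 0.00218). Cpt1a (0.01, adjusted p = 0.973) and Hadha (-0.05, adjusted p = 0.286) did not pass the test, with Cpt1a from 351 to 656 CPM (median 459.9) in females and 250.4 to 680.2 CPM (median 497) in males, and Hadha from 310.4 to 472 CPM (median 409.9) and 264 to 499 CPM (median 384). With any library left out and under every alternative, 20 of the 21 calls between the sexes and 8 of the 12 joint calls were kept; the joint calls of Echs1, Abcd2, Acads and Eci1 were not.

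Markers of cell types moved with sex as well. The sum of the 8 hepatocyte markers was 94596 to 132633 CPM in CAST/EiJ females and 57680.2 to 88031 CPM in CAST/EiJ males, without overlap. It was 98734 to 120835 and 91888 to 108649 CPM in C57BL/6J and 104395 to 139599 and 81234 to 119202 CPM in NZO/HlLtJ. In CAST/EiJ males Alb was lower at -0.91 (adjusted p = 2.39e-10) and Cps1 at -0.60 (adjusted p = 7.85e-05), while Serpina1c was higher by 0.34 (adjusted p = 0.0381). All 7 Kupffer cell markers were lower in CAST/EiJ males, and their sum was 101 to 173 CPM in them and 159 to 307 CPM in CAST/EiJ females. The sum of the 6 lymphocyte markers, at 5.36 to 8.87 CPM in CAST/EiJ males and 1.48 to 3.19 CPM in CAST/EiJ females, was higher in males without overlap. Of these, Cd4 was higher in CAST/EiJ males by 2.28 (adjusted p = 1.02e-07) and Cd79a lower at -1.16 (adjusted p = 0.00199). Their part in the sex differences was not tested.

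The rest of the pathway was read from lists of genes that are not among the 37. Of 34 other enzymes and transporters of fatty acid oxidation tested, 2 were higher on 44% fat in C57BL/6J, 2 in CAST/EiJ and 4 in NZO/HlLtJ, and 0 were lower. Over all genes 0.823%, 0.498% and 3.5% were called higher in the same order. The genes named here are examples from the list of 34. Among them were Acad10 (0.28, adjusted p = 0.03) and Hsd17b10 (0.37, adjusted p = 0.0357) in C57BL/6J, Ech1 (0.57, adjusted p = 0.00746) and Scp2 (0.31, adjusted p = 0.0191) in CAST/EiJ, and Acad12 (0.49, adjusted p = 0.00269), Acsm5 (0.29, adjusted p = 0.00426) and Acad9 (0.28, adjusted p = 0.0361) in NZO/HlLtJ. Between CAST/EiJ and C57BL/6J 11 were higher and 17 lower, between NZO/HlLtJ and C57BL/6J 13 and 9, and between NZO/HlLtJ and CAST/EiJ 22 and 11. Over all genes 32.6% were called higher and 35.3% lower in the first, 25.5% and 23.6% in the second, and 35.3% and 32.8% in the third. Acad12 (2.03, adjusted p = 3.6e-25) and Acsm5 (1.15, adjusted p = 5.3e-24) were higher in CAST/EiJ than in C57BL/6J, and Nudt19, which hydrolyses coenzyme A in peroxisomes, was lower in NZO/HlLtJ (-1.27, adjusted p = 5.37e-20). Between the sexes 14 were higher in males and 10 lower, among them Nudt7 (2.22, adjusted p = 9.23e-17) and Scp2 (1.29, adjusted p = 2.08e-27), both peroxisomal and higher in males. Over all genes 19% were called higher and 19.6% lower in males.

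Of 8 other ketone body genes 0 were called for diet in any strain. Of 25 tested genes of PPARA, its partners and other targets 0 were called for diet in C57BL/6J or CAST/EiJ. Over all genes 0.823% were called higher and 0.168% lower in C57BL/6J, 0.498% and 0.396% in CAST/EiJ, and 3.5% and 2.14% in NZO/HlLtJ. With such shares, counts of 0 in lists this short are not read as a result. In NZO/HlLtJ Cidea (adjusted p = 0.0106, no fold given, as many libraries had few or no reads) and the fatty acid importer Cd36 (0.89, adjusted p = 0.0249) were higher and Ppard (-0.82, adjusted p = 0.0469) lower. Ppara itself was called in no comparison, with diet differences of 0.04 (adjusted p = 0.965), 0.40 (adjusted p = 0.435) and 0.22 (adjusted p = 0.597) in C57BL/6J, in CAST/EiJ and in NZO/HlLtJ. Between CAST/EiJ and C57BL/6J 6 genes of this list were higher and 12 lower, including Vnn1 (-5.12, adjusted p = 4.84e-20) and Cyp4a14 (adjusted p = 1.92e-15, no fold given, as CAST/EiJ males had few or no reads), both lower in CAST/EiJ. Between the sexes 3 were higher in males and 10 lower, including the omega-hydroxylases Cyp4a10 (-2.52, adjusted p = 2.82e-13), Cyp4a14 (adjusted p = 1.05e-11) and Cyp4a31 (-3.26, adjusted p = 7.39e-16), members of a family of close copies whose reads may be shared. The shares over all genes were 19% higher and 19.6% lower in males. Among 15 genes of peroxisome biogenesis, Pex13 (0.17, adjusted p = 0.0404) was higher on 44% fat in NZO/HlLtJ. For diet in NZO/HlLtJ the shares over all genes were 3.5% higher and 2.14% lower. Between CAST/EiJ and C57BL/6J 3 of these were higher and 7 lower, including Pex7 (-1.41, adjusted p = 2.04e-25) and Pex19 (-1.31, adjusted p = 8.13e-23). Calls between these strains were about as common over all genes, at 32.6% higher and 35.3% lower. The number of calls between CAST/EiJ and C57BL/6J in the PPARA and peroxisome biogenesis lists is therefore not particular to them. This does not extend to the sexes, where 10 of the 25 PPARA genes were lower in males against 19.6% of all genes. Whether that share differs was not tested.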

How the data were processed

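RNA-seq of 47 mouse liver libraries was analysed from 2 tables. The build GRCm38 and the tool DESeq2 are named in the submitters' processing notes. The sources used here do not give the aligner, the counter, the annotation release, the use of strand in counting or whether each strain was aligned to its own genome. The values of the main table are the authors' deposited expected counts per gene, of which 20.3% were not whole (tolerance 1e-06). The other deposited table holds variance-stabilized values on a log2 scale, used for an alternative. Gene starts and ends were as deposited, in megabases.

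Groups of strain, sex and diet came from the labels. After rounding to whole numbers, genes were kept by edgeR's filterByExpr (16650 of 20320), then scaled by TMM. edgeR 4.0.16 (R 4.3.3) fitted 12 group means with robust quasi-likelihood, leaving 35 residual degrees of freedom, and p-values were adjusted by Benjamini-Hochberg over all genes tested. Depth was 21609240.0 to 47780231 counts. SE is the absolute log2 fold change divided by the square root of F. No libraries within a group agreed within sampling noise (the lowest chi-square per gene was 23.0). The fits were also run on simulated counts without strain or run differences, with planted changes larger than most diet differences here. The outcome is not given here, so it is no check of these results. Alternatives used DESeq2 1.42.0, limma 3.58.1, other filters and scaling, covariates and left-out libraries.

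The members and lists were chosen with earlier results of these data known. Values are given for up to 6 called members of lowest p in each comparison and for Cpt1a, Acadm, Hadha, Ehhadh and Bdh1 whatever their test. From each other list up to 4 called genes of lowest p per comparison were open to naming, with Ppara. Some genes of these lists are counted but not reported here by name. Slc22a5 in NZO/HlLtJ, Eci3 per library and the comparisons within 1 strain or sex were added after values were seen. Promoters are RefSeq's (GRCm38.p6), and transcripts compared for near copies are GENCODE's. Intervals and floors cover counting error only, as reads are not independent molecules.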

Additional observations from a re-analysis of the deposited data

Results flagged for a closer look

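In 13 of the 407 groups of 4 libraries over the 37 genes (3.19%), 1 library stood apart, with a gap to its nearest neighbour so large a part of the range of the group (values in parentheses) that it passed Dixon's 95% limit. Chance gives about 1 in 20. Slc25a20 was lowest in C57BL/6J female 44% fat replicate 1 (0.846), Crot highest in C57BL/6J male 10% fat replicate 2 (0.845) and Amacr lowest in C57BL/6J male 44% fat replicate 4 (0.91). In CAST/EiJ females Acat1 was lowest in 10% fat replicate 4 (0.869) and highest in 44% fat replicate 2 (0.93), and Amacr was highest in 44% fat replicate 1 (0.969). In CAST/EiJ males on 44% fat Acaa2 (0.858) and Etfb (0.929) were lowest in replicate 3, and Acadl (0.863) and Phyh (0.97) highest in replicate 4. In NZO/HlLtJ Hadh was highest in female 44% fat replicate 4 (0.913), Etfb highest in female 44% fat replicate 1 (0.883) and Slc22a5 lowest in male 44% fat replicate 2 (0.8293). The median deviation of the members from their means was lowest in CAST/EiJ female 44% fat replicate 1 (0.932) and NZO/HlLtJ male 44% fat replicate 2 (0.849).

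The male to female difference was unequal between the strains for 12 genes by the joint test in edgeR, with adjusted p of 1.43e-09 for Phyh, 2.05e-05 for Acadl, 2.23e-05 for Eci3, 4.08e-05 for Acadm, 0.000399 for Hadh, 0.000863 for Acad11, 0.00171 for Acaa1b, 0.00693 for Etfdh, 0.0144 for Echs1, 0.0185 for Abcd2, 0.0247 for Acads and 0.0377 for Eci1.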

How the results depend on the processing

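No alternative reversed the direction of a called difference. Counts of members called that moved past 1.5 times were these. With DESeq2 the diet count was 1 in C57BL/6J (0 in edgeR) and 17 in CAST/EiJ (11), and sex by diet in NZO/HlLtJ gave 1 (0). With the identifier run as a covariate the diet count was 6 in CAST/EiJ and 12 in NZO/HlLtJ males (19), and with the clock score 6 in CAST/EiJ, 9 in NZO/HlLtJ (15) and 8 in NZO/HlLtJ males. Within each of the 3 runs alone it was 0, 0 and 0 in CAST/EiJ, and in the first run 0 in NZO/HlLtJ, where the fits hold fewer libraries; in the other runs of that strain sex and diet coincide, so none was formed. Leaving out the 5 libraries where Cpa1 reached 20 CPM, males against females in C57BL/6J gave 6 (10). Leaving out each library in turn gave diet counts of 0 to 7 in C57BL/6J, 2 to 19 in CAST/EiJ, 9 to 16 in NZO/HlLtJ, 1 to 20 in NZO/HlLtJ males and 0 in NZO/HlLtJ females. The strain counts were 24 to 27 for CAST/EiJ against C57BL/6J, 14 to 17 for NZO/HlLtJ against C57BL/6J and 29 to 30 for NZO/HlLtJ against CAST/EiJ. The sex counts were 21 to 26 over strains, 8 to 11 in C57BL/6J, 13 to 24 in CAST/EiJ and 6 to 8 in NZO/HlLtJ, and 10 to 14 for sex by strain. Diet by strain, sex by diet and sex by diet in NZO/HlLtJ stayed at 0. The cause of these shifts was not tested. No paired analysis was possible because the labels give no replicate numbers shared between groups. Depth limits Eci3 in C57BL/6J males, where 0 to 3 reads were counted in a library.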
